A study of Mus musculus with 3 samples.

Results

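Open chromatin at the HoxC cluster was compared in cultured fat cells of 3 mouse depots. These were a white depot of the abdomen, the epididymal fat (eWAT), a white depot under the skin, the inguinal fat (iWAT), and the heat-producing brown fat (BAT). The sites described were all those of the 3 deposited DNase-seq lists with a midpoint between 102730000 and 102890000 on chromosome 15 (build mm9), a window of 160 kb. Hoxc13 lies at its low end and Hoxc4 at its high end. There were 16 such sites of 172496 in all: 4 of 60974 in eWAT, 6 of 63214 in iWAT and 6 of 48308 in BAT. Overlapping or touching sites of the lists were merged, which gave 11 regions in the window of 99297 in all. Among the listed sites, membership was set by position alone, with no measured value. The lists themselves hold only sites called from the signal of that depot.

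DNase-seq finds open chromatin by sequencing the DNA ends left where the enzyme DNase I has cut, so that a hypersensitive site is a place with many sequence tags. Stromal-vascular cells, which hold the fat cell precursors, came in each case from male NMRI mice aged 4 to 5 weeks. They were turned into fat cells with 30 nM insulin, 10% newborn calf serum and 1 µM rosiglitazone, an activator of the fat cell regulator PPARγ, and were harvested 8 days after plating. All groups share this treatment, and only cultures with more than 50% differentiation were kept, so the rest of the cells may be undifferentiated. The brown cultures pooled interscapular, cervical and axillary fat. Digestion used 120 U/ml DNase I. There was 1 library per depot, so every difference below is between single libraries, with no replicate error and no test. In such bulk cultures, a site open in fewer cells and a site less open in each cell cannot be told apart.

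Hox genes encode homeodomain transcription factors that tell cells where along the body axis they lie. Genes at one end of a cluster (Hoxc4, Hoxc5, Hoxc6) act from the neck backwards, and genes at the other end (Hoxc10 to Hoxc13) act at lumbar and more posterior levels and in the hindlimb. Fat depots keep a Hox expression pattern that reflects their place in the body, and Hoxc9 and Hoxc10 are used as markers of inguinal white fat. In the RefSeq gene table of GRCm38, all 9 genes were found, in the order Hoxc13, Hoxc12, Hoxc11, Hoxc10, Hoxc9, Hoxc8, Hoxc6, Hoxc5 and Hoxc4. Hoxc13 is known for hair and nail formation, Hoxc10 for hindlimb motor neurons and Hoxc8 for the lower neck and upper trunk. The long noncoding RNA gene Hotair stands between Hoxc12 and Hoxc11, the microRNA gene Mir196a-2 between Hoxc10 and Hoxc9, and Mir615 starts between the starts of Hoxc5 and Hoxc4. The nearest protein-coding genes are Calcoco1 beyond Hoxc13 and Smug1 beyond Hoxc4. That table is of another build, so it was used for names and order only. No site is assigned to a gene here, the bases of the sites were not read, and the depot labels were not checked against marker genes. The window was divided at its middle, 102810000, into a Hoxc13 side and a Hoxc4 side of 80 kb each, which is a division by distance and not by gene.

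The listed sites lay mostly on the Hoxc4 side, in every depot. BAT had 0 of its 6 sites on the Hoxc13 side (95% interval 0 to 45.9%), eWAT had 1 of 4 (25%, 0.631 to 80.6) and iWAT had 2 of 6 (33.3%, 4.33 to 77.7). These and all other intervals of shares are exact (Clopper-Pearson) and cover counting error only. They overlap widely, so the shares of sites do not separate the depots. For comparison, each chromosome was tiled with windows of 160 kb. Of these, 3266 held at least 6 BAT sites, and 4.84% of them had all their sites on 1 side of their middle. For eWAT windows with at least 4 sites the share was 8.1%, and for iWAT windows with at least 6 sites it was 3.1%. Most of these windows held more sites than the HoxC window, and windows with more sites are less easily one-sided. Windows with exactly as many sites were not compared.

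Shares of tags are given next, and on the Hoxc13 side they rest on 1 eWAT and 2 iWAT sites. The authors' normalized tag counts are whole multiples of 1 step per library, so they can be read as numbers of tags. Of the tags in listed sites of the window, 12 of 87 in eWAT lay on the Hoxc13 side (13.8%, 95% interval 7.34 to 22.9). In iWAT it was 21 of 92 (22.8%, 14.7 to 32.8), and in BAT 0 of 116 (0%, 0 to 3.13). The intervals of eWAT and iWAT overlap, and that of BAT lies below both as the lists were deposited and divided. The gap between BAT and eWAT rests on the single eWAT site of 12 tags. The eWAT share was also 0% when the lists were made equally long, and with a common lowest score, strong sites alone (the top 25% of each list) or the dividing point moved 20 kb towards Hoxc13. With that point moved 20 kb towards Hoxc4, eWAT had 47.1%, iWAT 22.8% and BAT 13.8%. Strong sites alone gave 0% in iWAT as well. The intervals treat tags as independent and take the listing of sites as given. Tags entered the shares only with a whole listed site, so 1 site more or fewer can move a share past its interval. Every listed site stood at least 4 times above its surroundings, so a place with many tags and tag-rich surroundings may be unlisted without being closed.

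**Figure D1:**
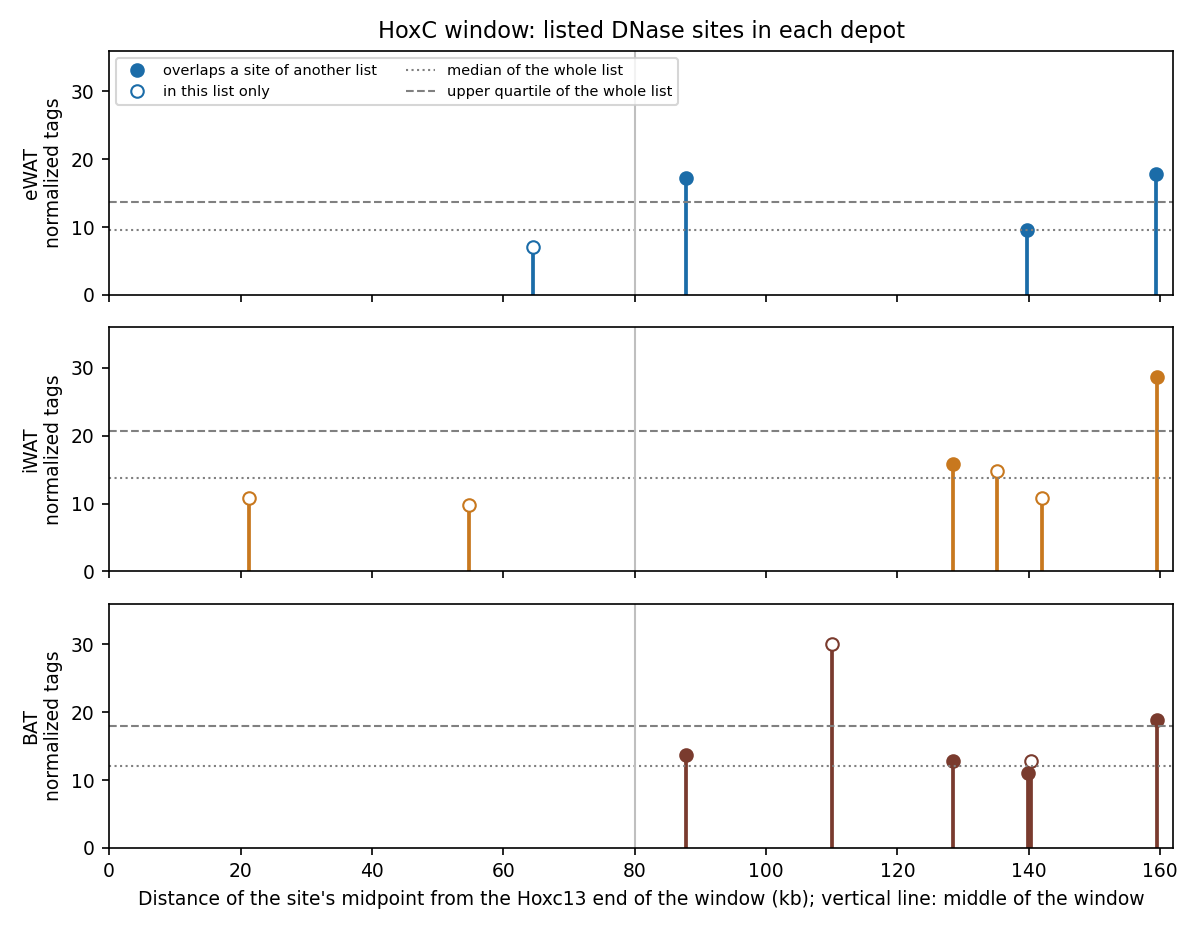
Normalized tag count (vertical axis) of each listed site against its distance from the Hoxc13 end of the window in kb (horizontal axis), 1 panel per depot; filled points overlap a site of another list, open points do not, and the dotted and dashed lines are the median and upper quartile of that depot's whole list. On the Hoxc13 side (left of the vertical line) eWAT has 1 site, iWAT 2 and BAT 0, all of them open points below their list's median.

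On the Hoxc13 side there were 3 sites, each in a single list and each weak within it. The iWAT site nearest to the Hoxc13 end lay at 102751115 to 102751337, 21.2 kb into the window, with 10.8 normalized tags (11 tags), and ranked at 66.8% of its list counted from the strongest. The nearest site of another depot was an eWAT site 43.1 kb away, so neither eWAT nor BAT listed anything close to it. The next iWAT site, at 102784712 to 102784934, held 9.85 normalized tags (10 tags) and ranked at 75.1%. The eWAT site, at 102794404 to 102794624, held 7.14 normalized tags (12 tags) and ranked at 73.7% of its own list. It lay 9.47 kb from that iWAT site, and the 2 did not mark the same place. BAT listed no site from 102670140, below the window, to 102817752, a stretch of 148 kb. The corresponding empty stretches leading into the window were 124 kb in eWAT and 118 kb in iWAT.

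Past the middle, the first region was held by eWAT and BAT and had no iWAT counterpart. It lay at 102817752 to 102817979. The eWAT site held 17.2 normalized tags (29 tags) and ranked at 12.8% of its list, and the BAT site held 13.7 (16 tags) and ranked at 39.9%. Their midpoints were 6 bp apart. The nearest iWAT site was 32.8 kb away, inside a stretch of 73.4 kb, from 102784934 to 102858329, without any iWAT site. Between neighbouring listed sites of the window, the longest gap in eWAT was 51.7 kb, from 102817979 to 102869697, and in BAT it was 22.0 kb. Before its first site in the window, BAT was empty for 87.8 kb from the Hoxc13 end, eWAT for 64.4 kb and iWAT for 21.1 kb. The iWAT list was thus empty over a stretch in which eWAT and BAT both listed sites. In the 40 kb next to the Hoxc13 end only iWAT listed anything, a single site of 11 tags.

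The strongest HoxC site of any list by tag count was a BAT site with no counterpart nearby. It lay at 102839984 to 102840206, 110.1 kb from the Hoxc13 end. It held 30.0 normalized tags (35 tags, 95% Poisson interval 24.4 to 48.7), stood 7.1 times above its surroundings and ranked 3187 of 48308, the top 6.6%. The nearest site of another depot was an iWAT site 18.1 kb away, and the nearest eWAT site was 22.0 kb away. Of all BAT sites in the top 25% of that list, 0.301% (38 of 12643) had no site of another list within 10 kb. This BAT site is 1 of those 38. It is singled out here for that same trait, so the share is a description and no test. The other strong BAT site of the window overlapped sites of both other lists. The single BAT site lay inside the longest gaps between sites of the eWAT list (51.7 kb) and the iWAT list (73.4 kb) in the window.

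Towards Hoxc4 the sites came closer together, and those before the last region ranked from 38.8% to 66.8% of their lists. A region at 102858329 to 102858564 was held by iWAT, with 15.8 normalized tags (16 tags), and by BAT, with 12.8 (15 tags). Their ranks were 38.8% and 44.4%, and eWAT had no site within 11.1 kb. An iWAT site at 102865060 to 102865282 held 14.8 normalized tags and stood alone, 4.42 kb from the nearest eWAT site. Next came 3 regions close together. The first, at 102869697 to 102869960, was held by eWAT with 9.52 normalized tags (16 tags) and by BAT with 11.1 (13 tags). The second was a BAT site at 102870266 to 102870488 with 12.8 normalized tags, 349 bp from that eWAT site without overlapping it. The third was an iWAT site at 102871871 to 102872093 with 10.8 normalized tags, 1.38 kb from the BAT site. It ranked at 66.8%, level with the iWAT site nearest to the Hoxc13 end. Each depot thus listed open chromatin in this short stretch, at positions that overlapped only between eWAT and BAT.

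At the Hoxc4 end of the window stood the 1 region that all 3 lists held, at 102889219 to 102889579. It held 17.8 normalized tags in eWAT (30 tags), 28.6 in iWAT (29 tags) and 18.8 in BAT (22 tags), and it ranked at 11.7%, 11.1% and 21.5% of the respective lists. It was the highest site of the window in eWAT and iWAT and the next after the single BAT site in BAT. The iWAT and BAT midpoints were 1 bp apart, and the eWAT midpoint was 139 bp from the iWAT one and 138 bp from the BAT one. Over the 24988 regions with exactly 1 site of each list, the median distance was 41 bp for eWAT and iWAT, and 20.8% of these pairs were at least 100 bp apart.

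By strength, 5 of the 16 HoxC sites were in the top 25% of their list: 2 of 4 in eWAT, 1 of 6 in iWAT and 2 of 6 in BAT. With ties at the limit counted in, the whole lists had 25.6%, 26.1% and 26.2% of their sites there, and each of these values lies inside the interval for the window (95% intervals 6.76 to 93.2% in eWAT, 0.421 to 64.1 in iWAT and 4.33 to 77.7 in BAT). All 5 lay on the Hoxc4 side: the eWAT site of the first shared region, the single BAT site, and the common region in each list. The median HoxC site ranked at 30.0% in eWAT, 55.0% in iWAT and 42.1% in BAT.

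Most HoxC regions were listed in a single depot, at a share that 11 regions do not set apart from the whole lists. Of the 11 regions, 7 were in a single list (63.6%, 95% interval 30.8 to 89.1), 3 in a pair of lists (27.3%, 6.02 to 61.0) and 1 in all lists (9.09%, 0.23 to 41.3). Over all regions of the merged lists the shares were 51.5%, 23.3% and 25.2%, each inside the interval for the window. The 7 regions in a single list were 4 in iWAT, 2 in BAT and 1 in eWAT. Counted as sites, 4 of 6 in iWAT overlapped no other list (66.7%, 95% interval 22.3 to 95.7), against 32.1% of the whole list. In BAT it was 2 of 6 (4.33 to 77.7) against 23.5%, and in eWAT 1 of 4 (0.631 to 80.6) against 32%. Each of these whole-list shares lies inside the interval for the window. Of the 3 regions in a pair of lists, 2 joined eWAT with BAT and 1 joined iWAT with BAT. The eWAT with BAT class was 18.2% of the window's regions (95% interval 2.28 to 51.8) against 5.32% of all regions. For iWAT with BAT it was 9.09% (0.23 to 41.3) against 6.73%. No HoxC region was held by the white lists eWAT and iWAT without BAT, a class that made up 11.3% of all regions. With 11 regions, these counts do not set the classes of the window apart from the whole lists.

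Where lists shared a region, the tag counts did not separate the depots. The regions gave 6 pairs of sites to compare, and each ratio was centred on the median ratio of the 24988 common regions, which sets aside the unstated scaling between libraries. None of the 6 was past 2-fold. Over the common regions, 3.81% were past 2-fold for eWAT and iWAT, 5.17% for eWAT and BAT and 5.57% for iWAT and BAT. These common regions are in all lists, while some of the 6 pairs come from regions held by only a pair of lists. For such regions neither the centre nor the share past 2-fold was taken. The widest difference was in the first shared region, where eWAT was above BAT by 0.61 on the centred log2 scale (95% counting interval -0.32 to 1.59). At the common region the centred log2 ratio of eWAT over iWAT was -0.08 (-0.86 to 0.71). That of eWAT over BAT was 0.20 (-0.64 to 1.06), and without centring it was -0.08, so its sign depends on the scaling. That of iWAT over BAT was 0.28 (-0.57 to 1.14). Every interval includes 0, and each is wide enough to hold a change of 1.5-fold, so these data show neither a difference nor its absence.

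**Figure D2:**
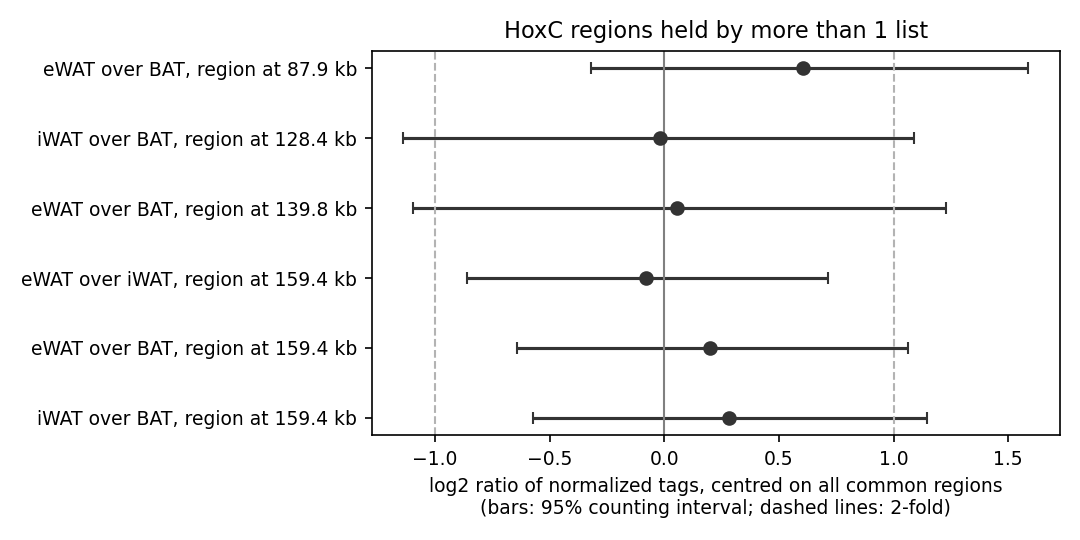
Centred log2 ratio of normalized tags (horizontal axis) for the 6 pairs of sites in HoxC regions held by more than 1 list (vertical axis, with the distance of the region from the Hoxc13 end); bars are 95% intervals from counting error, and dashed lines mark 2-fold. All 6 intervals cross 0, and no point lies outside the dashed lines.

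HoxC sites stood out less from their surroundings than most sites of the same lists. The fold over the surroundings is the authors' ratio of tag density at the site to that nearby, and tag-rich surroundings lower it. It was 5.8 for the eWAT site on the Hoxc13 side and 5.06, 4.23 and 4.25 for those on the Hoxc4 side, where the eWAT list had a median of 7.46. The iWAT sites ranged from 4.89 to 6.78 against a list median of 9.91. The BAT sites ranged from 4.01 to 10.79 against 9.23, and the single value above the median was the BAT site of the first shared region. So 15 of 16 sites were below the median of their list, where 49.9% of eWAT, 49.8% of iWAT and 50% of BAT sites are. In the lowest 25% by fold were 13 of 16: 3 of 4 in eWAT, 6 of 6 in iWAT and 4 of 6 in BAT, against 25%, 24.9% and 25% of the lists. Sites of different depots in 1 region share their sequence and surroundings, so the 16 sites are not independent.

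The whole window was also set beside others that held at least as many sites. Within the window the median fold came to 4.66 for eWAT, 6.39 for iWAT and 5.2 for BAT. Of the tiled windows with at least 4 eWAT sites, 0.248% (17 of 6867) had a median that low. With at least 6 sites it was 4.25% in iWAT (203 of 4773) and 0.582% in BAT (19 of 3266). Most of these windows held more sites than the HoxC window, and a median of more sites varies less. These shares may thus be lower than among windows with exactly as many sites, which were not compared. Beside the 3 adjacent windows of the same length on either side, the HoxC window had the lowest median in eWAT (the others 5.71 to 9.95) and in BAT (6.42 to 11.24). In iWAT it did not: a neighbouring window with 13 sites had a median of 6.13, and the others ranged from 6.83 to 14.68, so low folds were not particular to the HoxC window in that library. Several sites lay close to the lists' lower limit of 4, among them the BAT sites at 102869738 to 102869960 (4.01) and 102858342 to 102858564 (4.27), and the eWAT sites at 102869697 to 102869917 (4.23) and 102889219 to 102889439 (4.25). How many further HoxC sites fell below the limit was not tested.

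**Figure D3:**
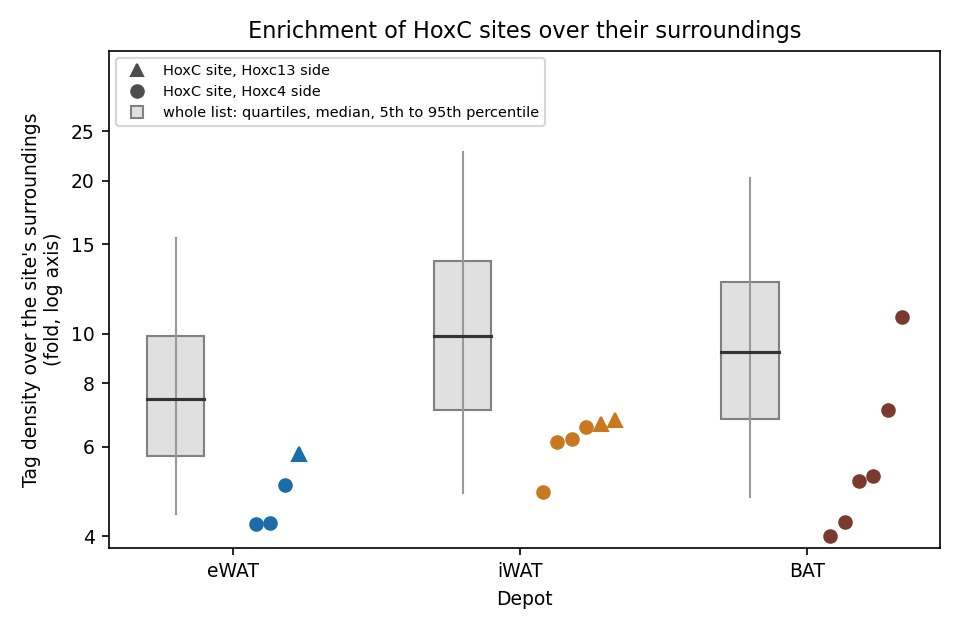
Fold of tag density over the surroundings (log axis) for the HoxC sites of each depot, as triangles on the Hoxc13 side and circles on the Hoxc4 side, beside the whole list of that depot (box: quartiles with the median; line: 5th to 95th percentile). Of the 16 HoxC sites, 15 lie below the median of their list, and 1 BAT site at 10.79 lies above it.

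In number of sites the window was at or above the middle of the tiled windows in each list. The median tiled window held 2 eWAT, 3 iWAT and 2 BAT sites, and 34.5%, 23.5% and 15.0% of windows held more than the HoxC window did. The adjacent 160 kb beyond Hoxc13 held 5 eWAT, 3 iWAT and 1 BAT sites, and the adjacent 160 kb beyond Hoxc4 held 16, 13 and 8. Within the window, the last 40 kb before the Hoxc4 end held 2 eWAT, 4 iWAT and 4 BAT sites. The last 20 kb held 1 eWAT, 2 iWAT and 2 BAT sites. With the window widened by 20 kb, the Hoxc4 side went from 3 to 7 eWAT sites and from 4 to 8 iWAT sites. In BAT it went from 6 to 8. Whether the density of sites changes at the window's end was not tested. At the Hoxc13 end, the last sites before the window lay 59.5 kb (eWAT), 96.9 kb (iWAT) and 60.0 kb (BAT) below its start.

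**Figure D4:**
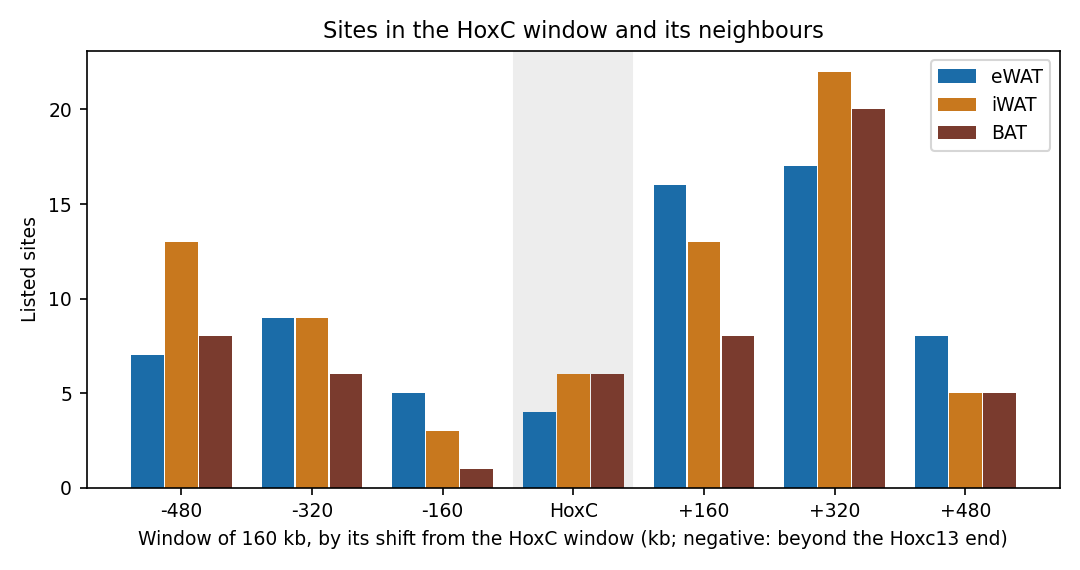
Number of listed sites (vertical axis, bars per depot) in the HoxC window (shaded) and in 3 windows of the same length on either side (horizontal axis, shift in kb, negative beyond Hoxc13). The HoxC window holds 4, 6 and 6 sites in eWAT, iWAT and BAT, and the next window beyond Hoxc4 holds 16, 13 and 8.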

How the data were processed

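DNase-seq was measured in 3 libraries, 1 per depot. Per the submitters' processing notes, the tools were STAR and HOMER and the build was mm9, with no roles or versions, and the column names are those of HOMER's findPeaks, per the file headers. For each site the authors deposited a normalized tag count, used here as a signal; the library total it is relative to is unstated. They also deposited a peak score, a focus ratio (a fraction), a fold (ratio) over the surroundings, its p-value and a clonal fold; the fraction, p-value and clonal fold were not used for any comparison. Peaks were deposited as 1 list per sample; the lowest fold in each list was 4, and the filters applied are not given in the sources used here.

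Tag counts were whole multiples of 0.595 (eWAT), 0.985 (iWAT) and 0.857 (BAT), within 0.0075 for values below 10 and 0.075 above, for at least 99.9% of sites. If the libraries were scaled to the same total, eWAT was the deepest. Sites of the lists that overlapped by at least 1 bp or touched were merged into regions. Sites were called strong if their tag count placed them among the top 25% of their list, ties included. With 1 library per depot no test was made. Intervals are 95%, exact binomial for shares and exact Poisson or conditional for tags, and cover counting error only. Merging was tested on 20000 simulated regions, of which 100% were recovered. The simulated sites of a region always overlapped and regions never touched, so this checks the code and not the choice of overlap. The members, lists and rules were chosen with earlier results of these data known. The sites named one by one were the 3 highest per list and side, every region held by all lists, and those next to the edges and the middle; the remaining few are also named, since there are 16. Marker and gene lists needed an mm9 annotation and were not used here. Python 3.11.15, numpy 2.4.6, pandas 2.3.3, scipy 1.17.1 and matplotlib 3.10.9 were used.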

Additional observations from a re-analysis of the deposited data

How the results depend on the processing

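No paired analysis was possible because each depot has 1 library. Of 127 values under alternative settings, 86 stayed within 1.5 times the count, or within the interval of the share or ratio, and 41 moved. Some of the 86 could not have moved. Over the whole window, counts of regions by the number of lists holding them do not depend on the dividing point. With numbers this small, 1 site moves a count past that limit. Most settings only removed sites or made the Hoxc13 side smaller, so they could not raise the 0 BAT sites there. A window widened by 20 kb at both ends also left 0. It could not have added any, since the last BAT site below the window lay 60.0 kb from its start. A dividing point moved 20 kb towards Hoxc4 gave 1 BAT site, 13.8% of BAT tags and 1 shared region on the Hoxc13 side. That setting gave eWAT 2 sites and 47.1% of tags. Moved 20 kb towards Hoxc13, eWAT had 0 sites and 0% of tags. The single eWAT site of the Hoxc13 side was also lost (0 sites) with lists of equal length, with a common lowest score (8.87 normalized tags), with strong sites alone and with a fold of at least 6; its tag share was 0% in the first 3 of these, and at a fold of at least 6 eWAT had 0 sites on either side, so no share. In iWAT, lists of equal length left 1 site and 13.4% of tags on the Hoxc13 side, and strong sites alone left 0 sites, 0% of tags and 1 site on the Hoxc4 side. Strong sites alone left 2 BAT sites, 2 regions in a single list and 0 in a pair of lists. A fold of at least 6 left 2 BAT sites, 0 regions in a pair of lists and 0 in all lists. An overlap of at least 50% left 0 regions in all lists. A window widened by 20 kb at both ends, chosen after seeing the data, gave 7 eWAT and 8 iWAT sites on the Hoxc4 side, 6.63% and 13.1% of tags on the Hoxc13 side, and 3 regions in all lists. Without the common region, also chosen after seeing the data, the iWAT share was 33.3%. Strong sites numbered 0 in each depot when ranked by fold. With strong as the top 10% eWAT had 0, iWAT 0 and BAT 1; with the top 50%, iWAT had 3 and BAT 5. Depth limits every site: HoxC sites held 10 to 35 tags.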

Other observations

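The common region at the Hoxc4 end of the window was part of a group of sites that ran past the window's end. Within 1 kb of that end eWAT listed 3 sites, iWAT 3 and BAT 2. The sites just outside held 17.8 and 18.4 normalized tags in eWAT (at 102890199 to 102890419 and 102890664 to 102890884), 19.7 and 25.6 in iWAT (at 102889954 to 102890176 and 102890674 to 102890896) and 18.8 in BAT (at 102890660 to 102890882). The values just inside were 17.8, 28.6 and 18.8. Sites on either side of the window's end were thus alike in tag count in eWAT and BAT. In iWAT the site just inside, at 28.6, was above those just outside, at 19.7 and 25.6. The end of the window divides a group of open sites. The fold over the surroundings of the sites just outside was 4.34 and 4.52 in eWAT, 4.17 and 5.53 in iWAT and 5.54 in BAT.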
